A study of Mus musculus with 30 samples.

Results

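A Gzf1 knockout pup found dead at birth was compared with the tail of a Gzf1 knockout mouse that reached adulthood, at the IG-CGI, a CpG island amplicon of the imprinted Dlk1-Dio3 domain. These are 2 of the 30 libraries of the series, taken by their library names and the shared amplicon reference. The series profiled CpG methylation by bisulfite amplicon sequencing in embryonic stem cells, embryonic trunk, oocytes and adult tissue of several genotypes. For scale, 8 further IG-CGI libraries were read the same way. They are a wild-type adult tail, 5 tails of heterozygous mice that inherited the Gzf1 knockout from the mother, and the trunk of a wild-type and of a Gzf1 knockout embryo at stage E10.5. Both libraries of the comparison carry the genotype label Gzf1 knockout, with no wild-type allele named, and the reads do not show the Gzf1 allele. The pup carries the same adult tail tissue label as the adult, and its stage is taken from its title. Stage and outcome differ together, and with 1 library on each side they cannot be told apart from each other or from differences between any 2 animals. No strain, exact age or number of animals per library is labelled.

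Dlk1, a paternally expressed gene for a transmembrane protein of the Notch ligand family, lies on mouse chromosome 12 at 109452485 to 109463336 (mm10). Meg3, a maternally expressed long non-coding RNA gene also called Gtl2, lies at 109540996 to 109571729, and Dio3, which encodes a deiodinase that inactivates thyroid hormone, lies at 110279230 to 110281097. A control region between Dlk1 and Meg3 is normally methylated on the paternal chromosome and unmethylated on the maternal chromosome, so normal tissue gives a mixture of methylated and unmethylated molecules. Gzf1 (chromosome 2, 148679384 to 148692949) encodes a zinc finger protein, and the series title sets its methylation-dependent binding here against that of Zfp57, another such protein, which recognises methylated DNA at imprinted loci. Bisulfite sequencing of single molecules shows whether a tissue level near the middle comes from a mixture of such molecules or from molecules that are themselves partly methylated.

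The amplicon holds 29 CpGs over 218 bases, with neighbours 2 to 24 bases apart, and each CpG is named here by its position in the amplicon reference, from CpG 55 to CpG 273. The amplicon was not placed on the genome here, so these positions are not genome coordinates. The pup library held 1153 reads and 32603 calls, and the adult knockout library 1529 reads and 42964 calls, or 28.3 and 28.1 calls per read. Each CpG was called in 1111 to 1136 pup reads and in 1411 to 1502 adult knockout reads. The other 8 libraries held 1103 to 1865 reads. A code in the read names is shared by the pup and the 5 heterozygous tails, and another code by the adult knockout and wild-type tails, so the code and the comparison cannot be told apart. Reads are PCR copies without molecular identifiers. All intervals (95%) and Fisher's exact tests below therefore cover counting error of reads only, and compare these libraries rather than newborn with adult mice or death with survival.

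The dead pup was less methylated than the adult knockout over most of the amplicon and more methylated at its low-position end. The mean level over the CpGs was 75.8% (interval 74.4 to 77.2) in the pup and 80.6% (79.2 to 82.0) in the adult knockout, a difference of -4.74 points (-6.72 to -2.77). Both lay far above the wild-type tail at 51.9% and the heterozygous tails at 48.6% ± 2.78 (SD, n = 5). The difference between the knockouts was larger than the SD among the heterozygous tails and smaller than their whole range of 46.9% to 53.4%. Counting each identical read pattern once moved the difference to -7.19 points. The knockout trunk stood at 85.9% and the wild-type trunk at 45.1%.

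**Figure D1:**
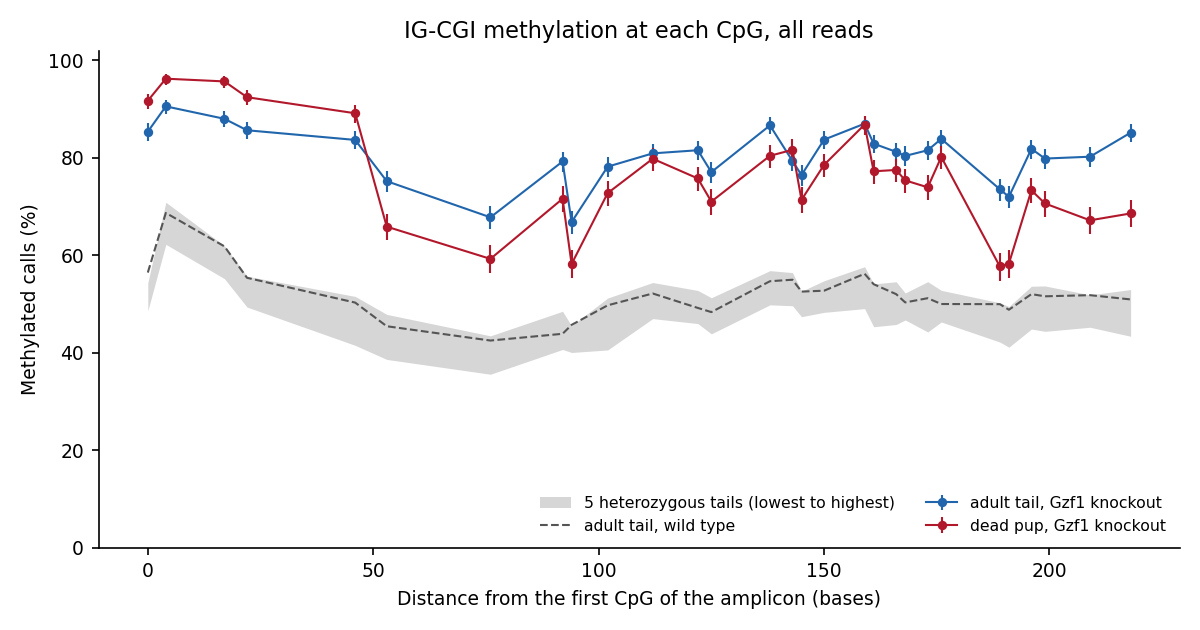
Percentage of methylated calls at each CpG of the IG-CGI amplicon in all reads, against the distance from the first CpG in bases; error bars are 95% Wilson intervals, the grey band spans the 5 heterozygous tails and the dashed line is the wild-type tail. The pup lies above the adult knockout at the first 5 CpGs (93.1% against 86.7% on average) and below it over most of the rest (72.2% against 79.3%).

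At single CpGs the differences were small, many and directional. By Fisher's exact test with Benjamini-Hochberg adjustment over the 29 CpGs, 26 of them (89.7%) had an adjusted p under 0.05, the same number as at an unadjusted p under 0.05. The pup was lower at 21 of these (72.4% of the 29) and higher at 5 (17.2% of the 29). No CpG (0%) differed by 20 points, the size set for a call, and 4 (13.8%) were lower in the pup by 10 points or more. With identical read patterns counted once, 10 were lower by that size. The median difference over all 29 was -5.68 points. The range between the highest and lowest heterozygous tail at a CpG was 5.21 to 10.6 points, and the difference between the knockouts exceeded it at 10 CpGs, 7 lower and 3 higher in the pup.

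The CpGs with the largest falls all lay at the high-position end. CpG 273, the last of the amplicon, was methylated in 68.6% of calls in the pup (Wilson interval 65.8 to 71.3) and in 85.2% (83.2 to 86.9) in the adult knockout. The difference at CpG 273 was -16.6 points (adjusted p 1.20e-21 by Fisher's exact test). Calls were missing there more often in the adult knockout, with 1411 against 1469 at CpG 264, than in the pup, with 1112 against 1116. The wild-type tail, which shares the adult knockout's read-name code, had 1544 against 1651. The part of these missing calls in the difference was not tested. Among reads called at every CpG the difference was -15.4 points. CpG 244 was at 57.7% in the pup and 73.6% in the adult knockout (-15.8 points, adjusted p 4.40e-16), and its neighbour CpG 246, 2 bases away, at 58.3% and 72.0% (-13.7 points, adjusted p 2.68e-12). These 3 CpGs lay at 41.2% to 53.0% in the single heterozygous tails, so the pup lay above every one of those tails at each of them. CpG 264, named after its values were seen, completed the set that differed by 10 points or more, with 67.2% against 80.3% (adjusted p 5.65e-13).

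The CpGs that passed the test with a rise were the 5 from CpG 55 to CpG 101. CpG 72 was at 95.7% in the pup and 88.0% in the adult knockout (+7.67 points, adjusted p 6.23e-12). CpG 77 was at 92.5% and 85.7% (+6.79 points, adjusted p 1.70e-07), and CpG 55 at 91.7% and 85.4% (+6.35 points, adjusted p 1.36e-06). The order of the 2 libraries thus turned between CpG 101 and CpG 108, which are 7 bases apart. Beyond them only CpG 198, named after its values were seen, was higher in the pup by value, at 81.7% against 79.4% (adjusted p 0.160). The SD among heterozygous tails was 2.11 to 2.86 points at these 3 rising CpGs.

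Means over stretches of the amplicon, whose limits were chosen after the profile had been seen, give the same picture with the error of whole reads. Over CpGs 55 to 101 the pup was higher by 6.39 points (interval 4.66 to 8.12). It was lower by value over the 4 CpGs from 108 to 149 (-8.53 points, -11.2 to -5.81) and the 14 CpGs from 157 to 231 (-4.18 points, -6.39 to -1.97). The 6 CpGs from 244 to 273 had the lowest difference, with 66.0% in the pup and 78.8% in the adult knockout (-12.8 points, -15.3 to -10.3). The pup's profile was accordingly steeper. The first 5 CpGs exceeded the other 24 by 20.8 points in the pup and by 7.38 points in the adult knockout. The same gap was 8.08 points in the wild-type tail, 6.50 to 9.49 in the heterozygous tails, 8.63 in the knockout trunk and 0.608 in the wild-type trunk. Over CpGs 55 to 101 the knockout trunk averaged 93.1%, as did the pup, against 86.7% in the adult knockout. Over CpGs 108 to 273 the knockout trunk averaged 84.4%, against 72.2% in the pup and 79.3% in the adult knockout. From the lowest to the highest CpG, levels spanned 38.5 points in the pup (57.7% at CpG 244 to 96.3% at CpG 59) and 23.7 points in the adult knockout (66.8% at CpG 149 to 90.6% at CpG 59), against 24.3 to 31.1 in the heterozygous tails.

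Partly methylated molecules were more frequent in the pup. Reads with at least 5 calls were called mixed when more than 30% and less than 70% of their calls were methylated, mostly methylated at 70% or more, and mostly unmethylated at 30% or less. Mixed reads made up 296 of 1153 pup reads, 25.7% (Wilson interval 23.2 to 28.3), and 170 of 1519 adult knockout reads, 11.2% (9.70 to 12.9). The difference was 14.5 points (11.5 to 17.5), a 2.29-fold higher share, with an adjusted p of 1.66e-21 by Fisher's exact test over 5 read classes.

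The mixed share of the adult knockout lay within the range of the heterozygous tails. Mixed reads made up 10.8% of reads in the wild-type tail, 11.3% ± 1.18 (SD, n = 5) in the heterozygous tails, with the highest at 12.6%, and 10.4% in the knockout trunk. The wild-type trunk had 6.68%, and the pup stood above all of them. The part of the read-name code in this difference was not tested. With 1 pup against 5 tails, the two-sided exact permutation p was 0.167 for the mean level and for the mixed share, the smallest it can be. Bounds of 40% and 60% gave a difference in the mixed share between the knockouts of 5.73 points, and bounds of 20% and 80% of 23.3 points.

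Both ends of the distribution were thinner in the pup. Mostly methylated reads made up 67.5% in the pup and 79.3% in the adult knockout (adjusted p 1.34e-11), and mostly unmethylated reads 6.85% and 9.48% (adjusted p 0.0162). Reads with every call methylated made up 18.1% in the pup and 23.2% in the adult knockout (adjusted p 0.00193). Wholly unmethylated molecules were rarer in the pup than in the adult knockout. Of 1153 pup reads 4 had no methylated call, 0.347%, against 46 of 1519 in the adult knockout, 3.03% (adjusted p 8.65e-08, Fisher's exact test). Within the mixed range the excess of the pup was largest just under the upper bound, where reads with 60% to 70% of calls methylated made up 11.4% in the pup and 5.13% in the adult knockout. Reads just above the bound, at 70% to 80%, were also more frequent, at 15.6% against 7.64%. Reads at 80% to 90% made up 14.5% in the pup and 19.2% in the adult knockout, and reads at 90% or more 37.4% and 52.5%. The median read was methylated at 82.8% of its calls in the pup and at 92.9% in the adult knockout.

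**Figure D2:**
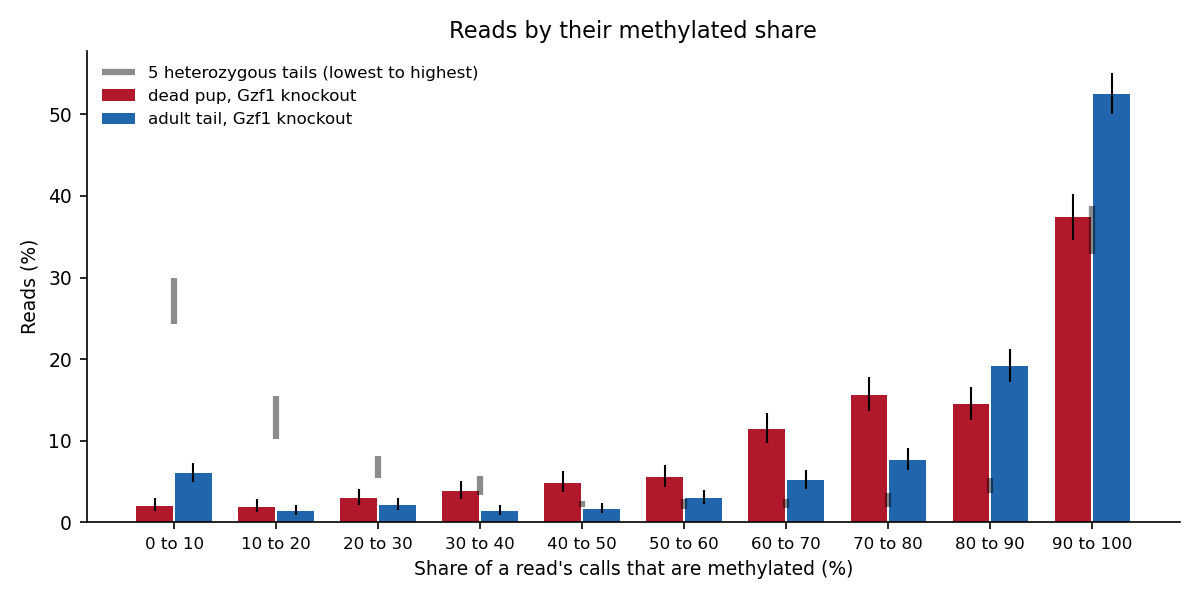
Percentage of reads by the methylated share of a read, in steps of 10 points, for the dead pup (red) and the adult knockout (blue), with 95% Wilson intervals; grey bars span the 5 heterozygous tails. The pup exceeds the adult knockout from 10% to 80% methylated. It lies below it at 80% to 90% (14.5% against 19.2%), at 90% or more (37.4% against 52.5%) and at less than 10% (1.99% against 5.99%).

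The lower mean of the pup can be divided arithmetically between how often each kind of read occurred and how methylated each kind was. Of the difference of -4.74 points pooled over calls, -3.06 came from the shares of the classes and -1.67 from levels within them. Inside mixed reads the overall level hardly differed, with 54.8% in the pup and 55.8% in the adult knockout. Mostly methylated reads were at 89.9% and 92.7%, and mostly unmethylated reads at 16.2% and 8.98%. This split is a description without a test.

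Mixed reads had nearly the same average level in the 2 animals, which the bounds of the class limit, and the methylated CpGs lay at different places in them. Because the methylated share of each such read is bounded, rises at some CpGs and falls at others are linked. The pup was higher at 12 CpGs and lower at 17 by value. Of the 29, 17 passed an adjusted p of 0.05 by Fisher's exact test (58.6%), 8 higher (27.6%) and 9 lower (31%) in the pup. With identical patterns counted once 12 passed, and with 1 read kept from each family of near-identical reads, described below, 3 passed. Over all mixed reads, all 9 lower ones and 7 of the higher ones (24.1% of the 29), 16 in all (55.2%), differed by 10 points or more. By 20 points or more 5 differed (17.2%), 3 lower (10.3%) and 2 higher (6.9%) in the pup. The median difference was -2.72 points. The largest rise was at CpG 101, methylated in 85.9% of mixed pup reads and 52.4% of mixed adult knockout reads (+33.5 points, adjusted p 3.88e-13), where the heterozygous tails had 33.8% to 45.1%. CpG 77 followed with 90% against 65.1% (+24.9 points, adjusted p 3.41e-09). The largest fall was at CpG 251, with 46.2% against 70.4% (-24.2 points, adjusted p 6.86e-06). The pup value at CpG 251 lay just below the heterozygous range of 46.6% to 57.4%, so there it was the adult knockout that stood above the other tails.

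Both libraries had their most methylated CpGs inside mixed reads at the same positions, CpG 59 and CpG 72. CpG 59 was at 96.2% in the pup and 85.1% in the adult knockout, and CpG 72 at 95.5% and 83.3%. The least methylated CpGs were at other places in each library. In the pup they were CpG 246 at 20.5% and CpG 244 at 24.0%, which in the adult knockout were at 37.2% and 38.4%. In the adult knockout they were CpG 131 at 19.8% and CpG 157 at 27.2%, which in the pup were at 29.8% and 44.7%.

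**Figure D3:**
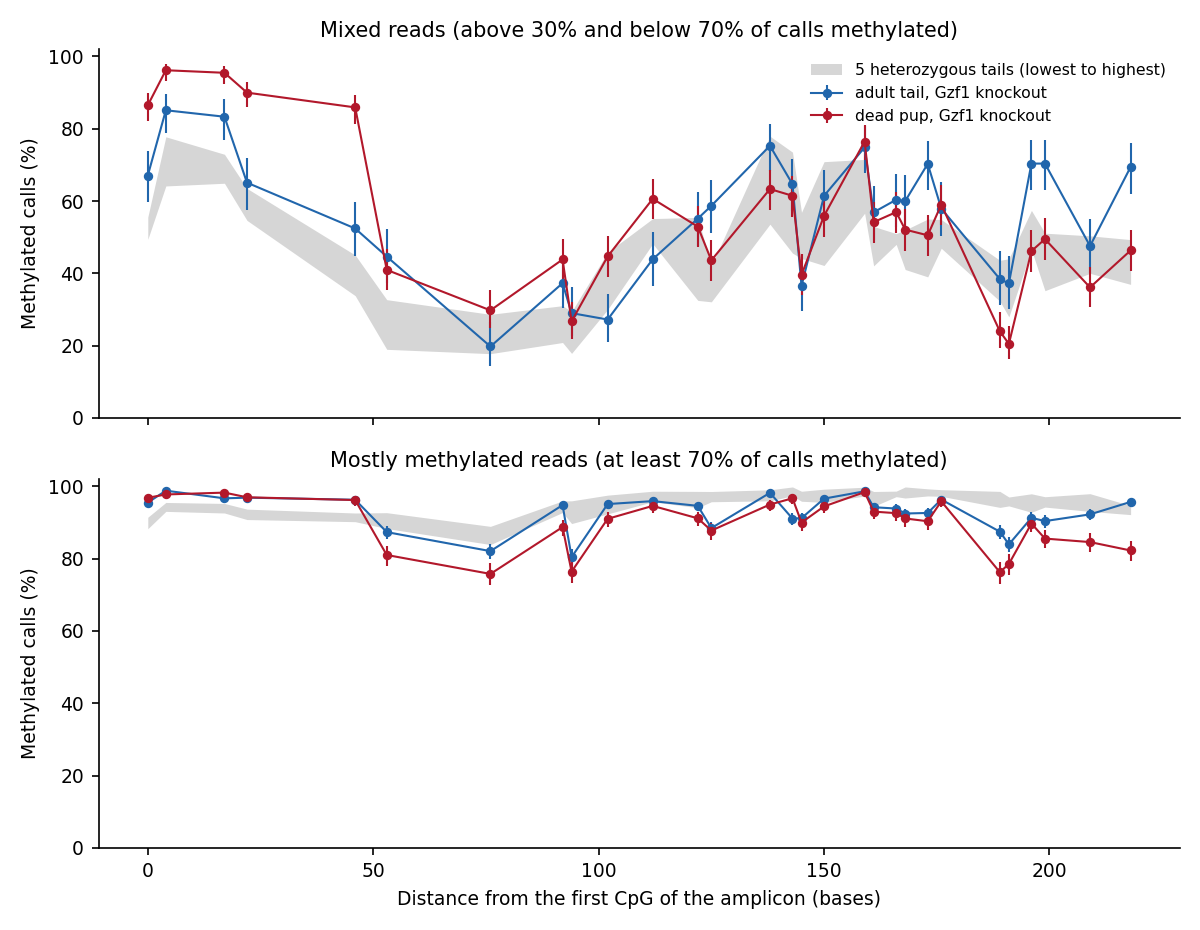
Percentage of methylated calls at each CpG within mixed reads (upper panel) and within mostly methylated reads (lower panel), against the distance from the first CpG in bases, with 95% Wilson intervals and the span of the 5 heterozygous tails in grey. In mixed reads the pup stays high through CpG 101 (85.9% against 52.4%), and in mostly methylated reads it dips below the adult knockout at CpG 244 (76.3% against 87.5%) and CpG 273 (82.3% against 95.7%).

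Read by read, a mixed molecule of the pup was nearly always more methylated at CpGs 55 to 101 than further in. Among mixed reads with at least 3 calls in that stretch and 5 beyond it, the share of methylated calls was higher in the stretch in 278 of 287 pup reads, 96.9%, and in 127 of 169 adult knockout reads, 75.1% (p 2.50e-12, Fisher's exact test). The stretch was methylated at every call in 64.8% of pup and 39.6% of adult knockout mixed reads (p 2.09e-07). It had no methylated call in 1 pup read, 0.348%, and in 25 adult knockout reads, 14.8% (p 8.90e-11). The average level in and beyond the stretch was 90.9% and 46.9% in the pup, and 70.7% and 52.2% in the adult knockout. In the heterozygous tails 17.3% to 29.3% of mixed reads were methylated at every call of the stretch, in the knockout trunk 47.0% and in the wild-type trunk 18.4%. The trunk knockout also had a higher level in the stretch in 90.3% of its mixed reads. With 1 read kept per family the share with every call methylated was 63.0% in the pup and 51.8% in the adult knockout (p 0.166). The other tests of this stretch in mixed reads were not repeated that way. Its limits were chosen after the profile had been seen, so these p-values do not test a stretch set beforehand.

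Mostly methylated reads carried part of the same difference. In these reads the CpGs 55 to 101 averaged 97.2% in the pup and 96.8% in the adult knockout. Of the 29 CpGs, 12 passed an adjusted p of 0.05 (41.4%), 11 lower (37.9%) and 1 higher (3.45%) in the pup. By 10 points or more 2 differed, both lower (6.9%), and none (0%) differed by 20 points, with 15 at an unadjusted p under 0.05. The median difference was -1.59 points. CpG 273 was at 82.3% in mostly methylated pup reads and 95.7% in the adult knockout (-13.4 points, adjusted p 4.42e-20 by Fisher's exact test). CpG 244 was at 76.3% and 87.5% (-11.2 points, adjusted p 4.98e-09). In the heterozygous tails CpG 273 stood at 92.2% to 94.7% in reads of this class, so the pup lay below and the adult knockout just above their range. At CpG 244 these tails had 94.2% to 98.6%, so both knockouts lay below them there. The 1 CpG higher in the pup was again CpG 198, at 96.7% against 91.1%. Both values lay below the 97.4% to 99.8% of the heterozygous tails, the adult knockout further than the pup.

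The arrangement of calls along single mixed reads is shown by the 3 commonest patterns of each library among reads called at every CpG, with CpG 55 at the left, CpG 273 at the right, a filled circle for a methylated and an open circle for an unmethylated call. In the pup each of the 3 occurred in 3 of 252 reads, and 8 patterns were tied at that number. In the adult knockout the first occurred in 9 of 141 reads, 6.38%, and the next 2, which were tied, in 5 each.
Pup, first: ●●●●●●●○●●○○○●●●●●●●○●●○○●●○○
Pup, second: ●●●●●●○●○●●○○○○○●●●○●●●●○●●○○
Pup, last shown: ●●●●●●○●○○●●○○○●●●○○○○○●○○○○○
Adult knockout, first: ●●●●○●○○○○○●●●●○●●○○○○○○○●●●●
Adult knockout, second: ●●●●●○○○○○○●●●●○●○●●●●●○○●●●●
Adult knockout, last shown: ●●●○●●●●●○○●●○●○●●●●○○●●●●●○○
The 3 pup patterns shown were methylated from CpG 55 to CpG 108 and unmethylated at CpGs 246, 264 and 273. They are 3 of 8 tied patterns, so what they share does not describe the other tied ones or the mixed reads at large. The first and second adult knockout patterns were methylated at the last 4 CpGs, from CpG 251 to CpG 273, and unmethylated from CpG 131 to CpG 157. No complete mixed pattern occurred in both libraries, among 213 different patterns in the pup and 87 in the adult knockout. Over all complete reads the libraries shared 59 patterns, 9.92% of the pup's and 12.8% of the adult knockout's. Other pairs of libraries were not compared in this way, so the lack of shared mixed patterns is not shown to be particular to this pair.

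Methylated and unmethylated calls alternated more often in the pup. A switch is a change of call between neighbouring called CpGs, of which a complete read has 28 pairs. In mixed reads 38.02% of neighbouring pairs were switches in the pup (interval 36.8 to 39.2) and 32.3% in the adult knockout (30.3 to 34.3), a difference of 5.74 points (3.38 to 8.11). This amounted to 10.4 switches per read against 8.80, a difference of 1.63 (0.950 to 2.30). Calls of the same reads in random order would switch in 48.5% and 48.6% of pairs, so neighbours were alike more often than that in both libraries, and the observed rate was 0.784 of the random one in the pup and 0.665 in the adult knockout. If the CpGs of a read were independent at their own levels within mixed reads, 44.2% and 46.3% of pairs would switch. The heterozygous tails had 27.4% to 33.0%, the wild-type tail 29.0%, the knockout trunk 29.2% and the wild-type trunk 23.5%. The adult knockout was thus inside the range of the other tails and the pup outside it.

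Molecules made of 1 methylated block beside 1 unmethylated block were rare in both. They made up 2 of 296 mixed reads in the pup, 0.676% (Wilson interval 0.185 to 2.43), and 9 of 170 in the adult knockout, 5.29% (2.81 to 9.75). The p was 0.00256 by Fisher's exact test, 0.0596 with 1 read kept per family and 0.197 with class bounds of 40% and 60%. In the pup both such reads were methylated at the low positions, up to CpG 72 and CpG 101. In the adult knockout 6 were methylated at the high positions and 3 at the low positions. Reads with up to 3 switches made up 3.04% in the pup and 13.5% in the adult knockout (p 3.27e-05, Fisher's exact test), against 14.9% to 24.4% in the heterozygous tails. This test and the run lengths that follow were not repeated with 1 read kept per family. The longest unmethylated run of a mixed read averaged 5.38 CpGs in the pup and 6.44 in the adult knockout (difference -1.07, -1.77 to -0.360). The longest methylated run averaged 6.03 and 6.50 CpGs, a difference whose interval included 0 (-0.470, -1.001 to 0.0619).

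**Figure D4:**
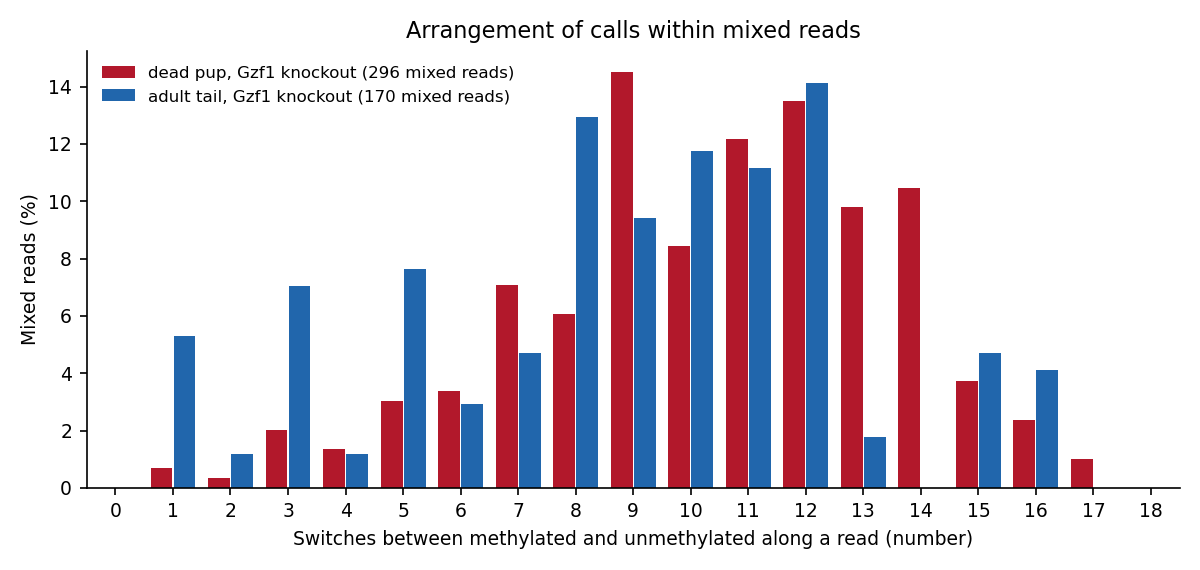
Percentage of mixed reads by the number of switches between methylated and unmethylated calls along a read, in the pup (296 reads, red) and the adult knockout (170 reads, blue). The adult knockout has more reads at 1 to 3 switches (13.5% against 3.04%), and the medians are 11 switches in the pup and 9 in the adult knockout.

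The likeness of 2 calls on a read fell off with their distance, and did so from a lower start in the pup. For CpGs 1 to 10 bases apart, 59.9% of call pairs in mixed pup reads were the same, which was 6.93 points above the value for independent CpGs. In the adult knockout it was 63.6%, or 11.5 points above. At 11 to 50 bases the excess was 3.21 and 4.63 points, and at 51 to 100 bases 0.467 and 0.302 points. Beyond 100 bases the excess was negative, at -1.29 points in the pup and -5.81 points in the adult knockout. These pairs share reads and CpGs, and the values are a description. Mixed reads were selected by their methylated share, which itself links the calls on a read. The part of this selection in the excess, also where it is negative, was not tested.

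Single gaps differed widely, and those named here were picked after their values were seen. The switch rate between CpG 147 and CpG 149, 2 bases apart, was 48.8% in the pup and 9.47% in the adult knockout (p 2.30e-19, Fisher's exact test). With 1 read per family it was 46.0% and 14.3% (p 1.16e-05). CpG 147 and CpG 149 thus carried the same call in most mixed molecules of the adult knockout, whereas in the pup their switch rate was near the 47.2% of independent CpGs. Of the 28 gaps, 9 had a lower switch rate in the pup by value. Among these were CpG 214 to CpG 216, also 2 bases apart, with 38.5% in the pup and 53.9% in the adult knockout, and CpG 244 to CpG 246, with 27.8% and 37.8%. Between CpG 101 and CpG 108, where the pup's level drops, 51.4% of mixed pup reads and 37.3% of mixed adult knockout reads switched.

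Mixed reads of the adult knockout were often near-copies of each other. In a comparison added after the data were seen, reads differing at no more than 2 CpGs were joined into families. The 296 mixed pup reads formed 218 families, 73.6 per 100 reads, the largest with 6 reads. The 170 mixed adult knockout reads formed 56 families, 32.9 per 100 reads, the largest with 24 reads, 14.1% of them. Such a near-copy was found for 41.6% of mixed pup reads (Wilson interval 36.1 to 47.2) and 81.2% of mixed adult knockout reads (74.6 to 86.3). The heterozygous tails had 42.9% to 62.4%, the wild-type tail 57.8%, the knockout trunk 69.9% and the wild-type trunk 75.8%. The adult knockout thus lay above and the pup slightly below the other tails. The wild-type trunk, with 36.3 families per 100 mixed reads, was the library nearest to the adult knockout. The number of starting molecules behind each library was not measured, and its part in this and in the read patterns was not tested. With 1 read per family, the difference in switches was 6.61 points (3.10 to 10.1) and the number of CpGs that differed by 20 points inside mixed reads was 2. CpG 101 remained 23.1 points higher in the pup (adjusted p 0.00659), whereas CpG 251 was 19.4 points lower by value (adjusted p 0.0993).

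At equal read number the pup held more different patterns. Among reads called at all 29 CpGs, 962 in the pup and 1220 in the adult knockout, the pup had 595 patterns. A sample of 962 adult knockout reads would hold 392 on average, so the pup had 203 more, 1.52 times as many. At 905 reads, the number in the smallest library, the pup had 566, the adult knockout 376, the wild-type tail 377, the knockout trunk 346, the wild-type trunk 293 and the heterozygous tails 373 to 467 (mean 408 ± 40.5, SD, n = 5). The pup was above the highest heterozygous tail and the adult knockout near the lowest. Patterns seen once held 50.8% of the pup's 962 reads (Wilson interval 47.7 to 54.0) and 25.5% of the adult knockout's 1220 (23.1 to 28.0). This share depends on the read number, which was not made equal for it.

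**Figure D5:**
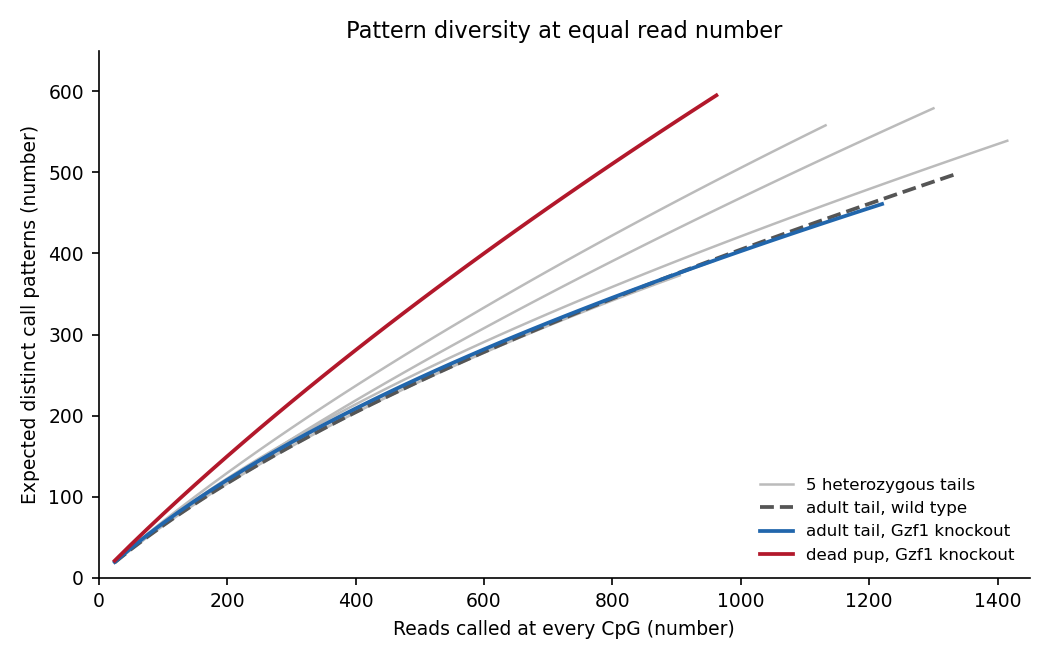
Expected number of different call patterns against the number of reads called at all 29 CpGs, by exact calculation without drawing samples, for the pup (red), the adult knockout (blue), the wild-type tail (dashed) and the 5 heterozygous tails (grey). The pup's curve is above every other curve, with 566 patterns at 905 reads against 376 in the adult knockout.

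The greater number of patterns was present both in mixed reads and in mostly methylated reads. At 141 mixed reads the pup had 128 patterns and the adult knockout 87, and at 647 mostly methylated reads 340 and 256. In mixed reads the pup did not stand above the heterozygous tails. The 2 tails with at least 141 complete mixed reads had 117 and 129 patterns at that number. Patterns seen once held 72.2% of complete mixed reads in the pup, 46.1% in the adult knockout and 64.5% to 84.0% in the heterozygous tails. These shares come from unequal numbers of such reads, 252 in the pup, 141 in the adult knockout and 109 to 144 in the heterozygous tails. The highest copy number of a mixed pattern was 3 in the pup and 9 in the adult knockout. Reads of the pup were also further apart, since 2 reads drawn at random differed at 9.98 of the 29 CpGs in the pup and 9.22 in the adult knockout. In mostly methylated reads these distances were 4.98 and 3.77 CpGs. In mixed reads the order was the opposite, with 12.01 in the pup and 12.7 in the adult knockout. The heterozygous tails, which hold methylated and unmethylated copies in similar number, had 14.2 to 14.4 over all reads.

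The commonest pattern was methylation at every CpG in both libraries, in 174 of 962 pup reads, 18.1% (Wilson interval 15.8 to 20.6), and 272 of 1220 adult knockout reads, 22.3% (20.05 to 24.7). The pattern that came second differed. In the adult knockout it was the wholly unmethylated read, with 40 reads, 3.28%, of which the pup had 3, 0.312%. In the pup it was a read unmethylated at CpG 131 alone, with 20 reads, 2.08%, which ranked next in the adult knockout with 27 reads, 2.21%. The libraries had 59 patterns in common, which were 9.92% of the pup's patterns and 12.8% of the adult knockout's, and held 34.7% and 46.5% of their reads.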

How the data were processed

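DNA was converted with a Zymo EZ Methylation-Lightning kit, amplified with nested primers for the locus and read as amplicons by Plasmidsaurus on Oxford Nanopore, per the labels' protocols. Bisulfite does not separate 5-methylcytosine from 5-hydroxymethylcytosine. The deposited files give 1 methylated or unmethylated call per read and CpG, and per the file headers they come from the Bismark methylation extractor 0.22.3. Bismark 0.24.2 and mm10 stand in the submitters' processing notes. How reads were filtered and aligned is not given in the sources used here.

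An amplicon CpG was a position called in at least 10% of reads of a library, and levels used CpGs with at least 10 calls. Other positions held 2 calls in the pup and 3 in the adult knockout. Intervals of means came from the variance over whole reads, those of shares from Wilson's method, and those of differences in shares from Newcombe's. A call needed an adjusted p under 0.05 and 20 points. Patterns used complete reads and the exact hypergeometric expectation. The text names the 3 CpGs with the largest fall and rise over all reads. Inside mixed reads it names the 2 highest and 2 lowest of each library and the 3 largest differences, and it shows the 3 commonest patterns. Other named CpGs were chosen after their values were seen. The comparison and the lists were chosen with earlier results of these data known. Scripts were tested on simulated data. Coverage minimums, size minimums, class bounds, read filters and repeated patterns were varied. Python 3.11.15, numpy 2.4.6, scipy 1.17.1, pandas 2.3.3 and matplotlib 3.10.9 were used, and gene coordinates come from the RefSeq table of mm10.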

Additional observations from a re-analysis of the deposited data

Results flagged for a closer look

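Among 17 measures checked over the 5 heterozygous tails, 2 had a tail far from the other 4, where chance flags about 1 in 20 such groups. Tail 2 had a mean level of 53.4%, with the nearest of the others at 48.5%. Tail 5 had a gap of 9.49 points between the mean level of CpGs 55 to 101 and that of CpGs 108 to 273, with the nearest of the others at 7.15 points. The pup lay beyond both values, at 75.8% and 20.8 points.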

How the results depend on the processing

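The pup's mean level stayed below the adult knockout's under each alternative, by -7.19 points with identical read patterns counted once to -3.75 points with reads called at every CpG. The mixed share and the share of switches stayed higher in the pup under each alternative applied to them. Keeping 1 read per family was applied inside mixed reads only, so not to the mean level or the mixed share. The number of CpGs called in all reads was 0, and became 1 with identical patterns counted once, 4 with a minimum of 10 points and 26 with no minimum difference. Inside mixed reads it was 5, and became 1 with class bounds of 20% and 80%, 11 with bounds of 40% and 60% and 2 with 1 read per family. The number past the adjusted p alone was 17, and 3 with 1 read per family. The deficit of reads with a single switch was -4.62 points, and with bounds of 40% and 60% it was -3.97 points (p 0.197) and with 1 read per family -4.44 points (p 0.0596), with fewer reads tested. The excess of patterns was 203 at 962 reads (1.52 times as many). It was 154 at 1024 reads over the lower-position CpGs alone (1.99 times) and 235 at 1060 reads over the higher-position CpGs alone (2.31 times). At 100 reads it was 11.2, at 141 mixed reads 40.7 and at 647 mostly methylated reads 84.3. Such counts depend on the read number, so their sizes are not directly comparable. Leaving out each heterozygous tail in turn gave an excess of the pup over their mean of 14.1 to 14.7 points for the mixed share and 26.9 to 28.5 points for the mean level. Of the single CpGs and stretches named, 2 results lost their threshold, both with 1 read per family. No result changed direction. No paired analysis was possible because each side has 1 library and no number links it to the other. Depth is that of PCR reads, and conversion was not checked at cytosines outside CpGs.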
